A study of Oryctolagus cuniculus with 35 samples.

Results

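The transcripts described here are those of the proteasome and of the ubiquitin-conjugating (E2) enzymes in rabbit lung. They were chosen by name: a gene belongs if its symbol begins with PSMA to PSMG and a digit, or with UBE2, and if at least 1 read was assigned to it in any library. A total of 64 symbols matched, 21 of them were listed at 0 in every library, and 43 remained, 29 with PSM and 14 with UBE2 symbols, of the 13452 genes with a read. PSMC3IP matched by its symbol only, since it encodes a factor of homologous recombination and not a proteasome subunit.

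Lung RNA came from 35 New Zealand rabbits, 7 per group and 1 library per rabbit, and ages were not given in the labels. In 4 groups the animals had pneumococcal pneumonia combined with adverse mechanical ventilation, and 4 h after the bacteria they were given both ceftaroline and MSC (ceftaroline plus MSC), ceftaroline alone, MSC alone or NaCl. Ceftaroline is a cephalosporin antibiotic and was injected into muscle at 20 mg/kg, and MSC are mesenchymal stromal cells of human umbilical cord, infused into a vein at a dose read from the label as 3000000 cells per kg. The last group was healthy and received NaCl, so a difference between NaCl and healthy lungs joins infection and ventilation, which cannot be told apart. Pieces were taken at 24 h, or earlier where a rabbit died before, and which rabbits these were was not given. The infused cells were human, and the labels do not state how many remained in the lung.

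The proteasome destroys proteins that carry chains of ubiquitin. Its 20S core is a barrel of alpha and beta subunits, of which the beta subunits PSMB5, PSMB6 and PSMB7 cut peptide bonds, and the 19S cap holds ATPases that unfold the substrate and non-ATPase subunits that bind and remove ubiquitin. Interferon-gamma induces PSMB8, PSMB9 and PSMB10, which take the places of the catalytic subunits in the immunoproteasome and alter the peptides offered to MHC class I. Ubiquitin passes from an E1 activating enzyme to an E2 enzyme and then, with an E3 ligase, to the substrate, and some E2 enzymes carry ubiquitin-like proteins such as ISG15 instead.

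Reads per library recovered from the deposited values ranged from 11137017 to 18271138 with ceftaroline plus MSC, from 11499403 to 33209729 with ceftaroline, from 9642813 to 11987726 with MSC, from 7611988 to 14948358 with NaCl and from 7567008 to 12794413 in healthy lungs. Titles of 3 NaCl, 2 MSC and 5 healthy libraries end in PD or PG (PG in the NaCl and MSC groups, 4 PD and 1 PG in the healthy group), and no title in the ceftaroline groups does. What these letters stand for was not given. A mark, S00, stands in the descriptions of all 7 healthy libraries and 1 NaCl library (replicate 2), so what it marks and the disease cannot be told apart. The lung label was checked against cell type markers. The summed level of the 8 listed neutrophil markers with a row, of which CSF3R and MMP9 were at 0, had a median of 74119 CPM (reads scaled to library size) in NaCl and 2921 CPM in healthy lungs, and all 5 that were tested rose. All 3 tested alveolar type II markers fell, as did all 3 tested alveolar type I markers, while 3 of 4 tested macrophage markers rose, and of 5 tested endothelial markers 3 fell and 1 rose. SFTPC, the surfactant gene that defines type II cells, was at 0 in every library. These shifts accompany every result below that sets NaCl against healthy lungs, and their part in it was not tested. In whole lung, a change in the number of cells of a type and a change of RNA per cell cannot be told apart.

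Of the 43 genes, 42 had enough signal to be tested in each of the 4 deposited comparisons. PSMB11, the beta subunit of the thymus, had 9 reads in all libraries together and was not tested. Listed at 0 throughout were 11 PSM genes, among them PSMB1, PSMB2 and the catalytic PSMB7, and 10 UBE2 genes, among them UBE2C, UBE2M and UBE2S. Why these genes, like SFTPC, were at 0 was not tested, and a 0 is not read here as lack of expression. Counts by role therefore cover only the genes with reads. PSME2, PSME4, UBE2N and UBE2D1 have no row under these symbols and were not analysed here. Levels are compared between samples only, because transcript lengths were not at hand. The genes of the UBE2D family, and PSMA7 and its testis form PSMA8, are close relatives. Whether reads were split between such genes was not tested, so their values are uncertain.

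The transcripts of the proteasome rose broadly with pneumonia and ventilation. In NaCl against healthy lungs 29 of the 42 tested genes were higher by limma at an adjusted p under 0.05, and 2 were lower. Fold changes within a deposited table are on the scale of log2(normalised reads + 1), which understates the change of low genes. Over all genes tested the same rule called 29.7% higher and 30.9% lower. The median log2 fold change was 0.56 over the 42 genes and 0.01 over all 9545 genes tested, and 37 of the 42 had a positive value. In 13 of the 42 all 7 NaCl libraries lay above all 7 healthy libraries, against 14.7% of all genes, and in none did all 7 lie below, against 15.2%. Together the 43 genes took 0.771 to 1.23% of the reads in NaCl libraries and 0.713 to 0.774% in healthy libraries.

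**Figure D1:**
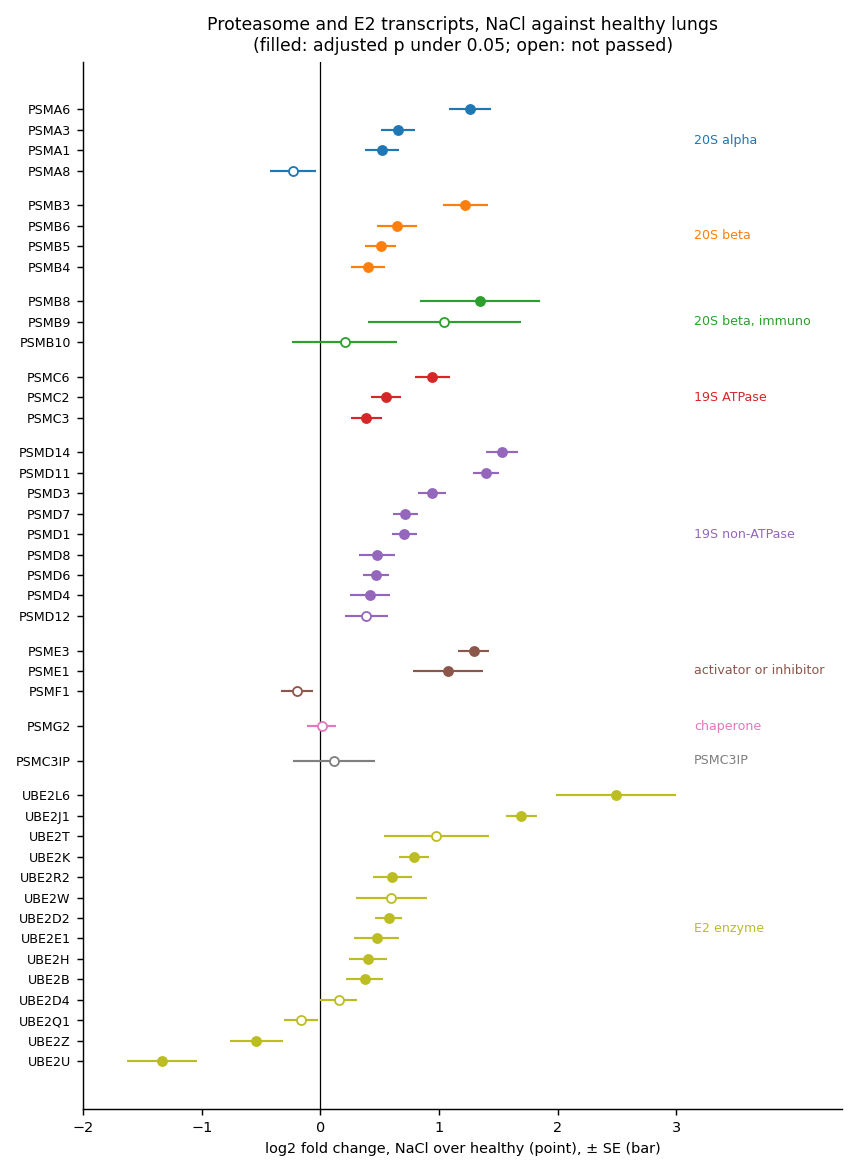
Log2 fold change of each tested gene in NaCl over healthy lungs, grouped by role (7 libraries per group; bars are SE, filled points passed an adjusted p of 0.05). Points lie right of 0 for all genes of the 19S cap, and the points of PSMB8, PSMB9 and UBE2L6 carry the widest bars, and PSMB9 did not pass.

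Of the alpha subunits, which form the outer rings of the core and its gate, 3 of 4 rose: PSMA6 by 1.26 on the log2 scale (SE 0.18), PSMA3 by 0.66 (SE 0.14) and PSMA1 by 0.52 (SE 0.15). PSMA6 had 5532, 5927 and 9263 normalised reads in the lowest, median and highest NaCl library, against 2039, 2837 and 4505 in healthy lungs (limma, adjusted p = 2.4e-05). No healthy library reached the lowest NaCl library. PSMA8, a subunit known from testis, did not pass (log2 fold change -0.23, SE 0.20). It was low in both groups, with a median of 61.6 normalised reads in NaCl and 63.6 in healthy lungs. In libraries with a title ending alone, 1 of the 4 alpha subunits, PSMA6, was higher. PSMA3 then had 0.43 and PSMA1 0.26 (limma, adjusted p = 0.063 and 0.24).

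All 4 constitutive beta subunits with reads rose. PSMB3, a non-catalytic subunit of the inner ring, had 4402, 7196 and 9539 normalised reads as lowest, median and highest in NaCl, against 1962, 2745 and 3357 in healthy lungs (log2 fold change 1.22, SE 0.19; limma, adjusted p = 4.8e-05). These ranges did not overlap. The catalytic subunits moved less. PSMB5, which carries the chymotrypsin-like activity, had 3117, 4100 and 4542 in NaCl and 2131, 2685 and 3323 in healthy lungs (log2 fold change 0.51, SE 0.13; limma, adjusted p = 0.0036). PSMB6, with the caspase-like activity, had 3541, 4464 and 6064 in NaCl and 2196, 3002 and 3822 in healthy lungs (log2 fold change 0.64, SE 0.17; limma, adjusted p = 0.0036). For both, the lower NaCl libraries fell inside the healthy range. PSMB4 rose by 0.40 (SE 0.15). Among libraries with a title ending only, 1 of the 4, PSMB3, was higher. PSMB5 then had 0.24, PSMB6 0.34 and PSMB4 0.07 (limma, adjusted p = 0.21, 0.17 and 0.69).

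The 3 tested interferon-induced beta subunits spread far more within the NaCl group. PSMB8 had 1491, 8464 and 19483 normalised reads as lowest, median and highest in NaCl, against 1475, 2114 and 3257 in healthy lungs (log2 fold change 1.35, SE 0.51; limma, adjusted p = 0.031). Its call was lost without any 1 of NaCl replicates 1 to 4 or healthy replicates 5 and 6, with adjusted p between 0.0524 and 0.0656. With the title ending as a covariate PSMB8 also lost its call (0.96, SE 0.42, adjusted p = 0.059 by limma). PSMB9 had 445, 4687 and 8783 in NaCl and 742, 1027 and 1752 in healthy lungs, and did not pass limma (log2 fold change 1.04, SE 0.64, adjusted p = 0.17). It passed the count test of edgeR on the recovered reads with a log2 fold change of 1.80 (adjusted p = 0.015), and it passed limma without NaCl replicate 5 (adjusted p = 0.048). PSMB10 had 536, 2807 and 5566 in NaCl and 1096, 1620 and 2107 in healthy lungs (log2 fold change 0.20, SE 0.45; limma, adjusted p = 0.71). For PSMB9 and PSMB10 no NaCl library lay inside the healthy range: 4 lay above it and 3 below.

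In the 19S cap 11 of 12 tested subunits rose. All 3 tested ATPases did, PSMC6 by 0.95 (SE 0.14), PSMC2 by 0.55 (SE 0.13) and PSMC3 by 0.39 (SE 0.13), and so did 8 of 9 non-ATPase subunits. PSMD14, the metalloprotease that cuts ubiquitin chains from the substrate at the mouth of the core, had 1175, 1447 and 1748 normalised reads in the lowest, median and highest NaCl library, against 396, 446 and 658 in healthy lungs (log2 fold change 1.53, SE 0.14; limma, adjusted p = 2.7e-07). PSMD11, a scaffold subunit of the lid, had 724, 911 and 1054 in NaCl and 302, 330 and 363 in healthy lungs (log2 fold change 1.40, SE 0.11; limma, adjusted p = 9.5e-08). Both were well separated in every library. Next came PSMD3 at 0.94, PSMD7 and PSMD1 at 0.71 each, PSMD8 at 0.48, PSMD6 at 0.47 and PSMD4, a ubiquitin receptor, at 0.42. PSMD12 was the member that did not pass (0.39, SE 0.18, adjusted p = 0.071 by limma). In libraries with a title ending alone, 7 of the 12 were higher. PSMD8 then had 0.14 and PSMD4 0.02 (limma, adjusted p = 0.49 and 0.92). With the ending as a covariate 11 of the 12 were higher, PSMD12 among them (limma, adjusted p = 0.021), while PSMD4 did not pass (limma, adjusted p = 0.084).

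Both tested activators rose. PSME3, a nuclear activator that opens the core without ubiquitin, had 415, 543 and 650 normalised reads in NaCl and 171, 221 and 257 in healthy lungs (log2 fold change 1.29, SE 0.13; limma, adjusted p = 7.5e-07). PSME1, a subunit of the activator that interferon-gamma induces, had 2281, 4124 and 8296 in NaCl and 1277, 2034 and 2449 in healthy lungs (log2 fold change 1.07, SE 0.30; limma, adjusted p = 0.0053). PSME3 did not overlap between the groups, and PSME1 overlapped in its lower NaCl libraries. PSMF1, an inhibitor of the core, had a log2 fold change of -0.20 (SE 0.14), the assembly chaperone PSMG2 one of 0.01 (SE 0.12) and PSMC3IP one of 0.11 (SE 0.35). None of these 3 passed.

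Among the 14 E2 enzymes 8 rose, 2 fell and 4 did not pass. UBE2L6, the E2 that hands ISG15 to its targets, had the largest rise of all tested genes described here, with 320, 1571 and 3501 normalised reads in NaCl and 113, 210 and 257 in healthy lungs (log2 fold change 2.49, SE 0.51; limma, adjusted p = 0.00059). Its ranges did not overlap, although the CPM of its lowest and highest NaCl library differed 11.3-fold. UBE2J1, an E2 of the endoplasmic reticulum membrane that serves the disposal of misfolded proteins, had 284, 330 and 413 in NaCl and 87.9, 94.8 and 133 in healthy lungs (log2 fold change 1.70, SE 0.13; limma, adjusted p = 8.5e-08). In contrast with UBE2L6 its libraries lay close together within each group. UBE2K, which builds chains linked through lysine 48, rose by 0.79 (SE 0.13), UBE2R2, an E2 of cullin ligases, by 0.61 (SE 0.17) and UBE2D2, a broadly used E2, by 0.57 (SE 0.11). UBE2E1, UBE2H and UBE2B rose by 0.47, 0.40 and 0.37, but these calls ended without any 1 of 8, 10 and 9 of the 14 libraries in that order. UBE2H and UBE2B also lost theirs with the title ending as a covariate (limma, adjusted p = 0.084 and 0.078).

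The E2 enzymes that fell were UBE2U and UBE2Z. UBE2U, a little-studied E2, had 32.7, 39.7 and 113 normalised reads as lowest, median and highest in NaCl, against 102, 131 and 203 in healthy lungs (log2 fold change -1.34, SE 0.29; limma, adjusted p = 0.001). Of its NaCl libraries 6 lay below every healthy one. UBE2Z, which accepts ubiquitin from the E1 enzyme UBA6, had 577, 803 and 1511 in NaCl and 972, 1366 and 1743 in healthy lungs (log2 fold change -0.54, SE 0.23; limma, adjusted p = 0.048). The groups overlapped, and edgeR did not call it (adjusted p = 0.068). It also lost its call without any 1 of NaCl replicates 4 to 7 or healthy replicates 1 to 4 and 7, with adjusted p between 0.0726 and 0.102. UBE2T, an E2 of the Fanconi anaemia pathway, UBE2W, UBE2D4 and UBE2Q1 did not pass, with log2 fold changes of 0.98, 0.60, 0.15 and -0.17. UBE2T was called higher by edgeR (1.23, adjusted p = 0.018), by limma in the fit over all libraries (0.93, adjusted p = 0.026) and in the authors' deposited table (1.25, adjusted p = 0.0074).

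Counts in the wider pathway stand beside 29.7% of all genes higher and 30.9% lower in NaCl against healthy lungs. No list was tested against these shares. Of 7 tested E1 enzymes 3 rose (among them UBA6 by 1.47 and UBA2 of the SUMO pathway by 0.91) and NAE1, of the NEDD8 pathway, fell by 0.93 on the log2 scale. UBB, the only tested ubiquitin gene, rose by 0.96 (SE 0.33). Of 7 tested partners and shuttles 3 rose and 1 fell: UCHL5, a deubiquitinase of the 19S cap, rose by 1.39, VCP, the ATPase that extracts ubiquitinated proteins, by 1.23 and the deubiquitinase USP14 by 0.76, whereas PAAF1, a 19S assembly factor, fell by 0.88. Of 7 tested regulators 4 rose, among them IRF1 by 2.74, STAT3 by 2.14 and NFE2L2 by 0.86. NFE2L1, the factor that raises proteasome genes when the proteasome is blocked, had a log2 fold change of -0.13 (SE 0.19) and did not pass. Of 4 tested partners in peptide loading 2 rose, TAP1, the transporter that carries peptides into the endoplasmic reticulum, by 2.37 and B2M, the light chain of MHC class I, by 1.00.

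Each pneumonia group was then set against healthy lungs in 1 limma fit over all 35 libraries, on log2 CPM of the recovered reads. These comparisons share the healthy libraries. Title endings are unequal between the groups: 3 NaCl and 2 MSC libraries have one, and no library with ceftaroline does. With ceftaroline plus MSC 27 of the 42 genes were higher and 1 lower, where 19.2% and 15.3% of all genes were. With ceftaroline 29 were higher and 2 lower, where 28.1% and 27% of all genes were. With MSC 28 were higher and 2 lower, where 26.1% and 24.7% of all genes were. UBE2U was lower in each of these, by -1.22 (ceftaroline plus MSC), -1.34 (ceftaroline) and -1.44 (MSC) on the log2 scale with an SE of 0.40, though edgeR did not call it with ceftaroline plus MSC (-0.96, adjusted p = 0.062). UBE2Z was lower with ceftaroline (-0.53) and with MSC (-0.55).

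PSMD14 had 102, 148 and 165 CPM as lowest, median and highest with ceftaroline plus MSC, 103, 166 and 184 with ceftaroline, 87.9, 156 and 178 with MSC, 124, 152 and 188 with NaCl and 43.4, 48.5 and 70.5 in healthy lungs. Every pneumonia library lay above every healthy library. The log2 fold changes over healthy were 1.32 with ceftaroline plus MSC, 1.48 with ceftaroline and 1.43 with MSC, each with an SE of 0.16. PSMD11 had 51.5, 85.8 and 110 CPM with ceftaroline plus MSC, 53.9, 95.8 and 130 with ceftaroline, 54.2, 94.5 and 107 with MSC, 75.7, 95.6 and 112 with NaCl and 32.5, 35.7 and 39.3 in healthy lungs. Again no pneumonia library overlapped the healthy ones. PSMC6 (0.96 with ceftaroline and with MSC, SE 0.13) and PSMD1 (0.68 with ceftaroline plus MSC, SE 0.10) were the other members among the 3 lowest p of these comparisons. UBE2J1 had 13.2, 27.4 and 37.3 CPM with ceftaroline plus MSC, 13.9, 31.4 and 37.1 with ceftaroline, 18.2, 30.9 and 33.2 with MSC, 29.7, 34.9 and 43.8 with NaCl and 9.62, 10.3 and 14.3 in healthy lungs. Here 1 library with ceftaroline plus MSC and 1 with ceftaroline reached down to the healthy range.

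UBE2L6 had 40.5, 175 and 412 CPM with ceftaroline plus MSC, 61.2, 227 and 450 with ceftaroline, 37.9, 168 and 426 with MSC, 33.4, 166 and 377 with NaCl and 12.1, 23.1 and 27.5 in healthy lungs. All 28 pneumonia libraries lay above the healthy ones, while the lowest and highest of each pneumonia group differed 7.36 to 11.3-fold. Over healthy its log2 fold changes were 2.69 with ceftaroline plus MSC, 3.22 with ceftaroline and 2.68 with MSC, each with an SE of 0.60. PSMB8 had log2 fold changes of 1.64, 2.04 and 1.64 in the same order (SE 0.52 each) and passed in each (limma, adjusted p = 0.016, 0.0016 and 0.0098). PSMB9 passed with ceftaroline plus MSC (1.91, SE 0.71) and with ceftaroline (2.29), and had 1.62 with MSC (limma, adjusted p = 0.055), where edgeR called it (2.15, adjusted p = 0.0092). PSMB10 had 1.16, 1.09 and 0.80 in that order (SE 0.50) and did not pass (limma, adjusted p = 0.068, 0.062 and 0.18). edgeR called it with ceftaroline plus MSC (1.48, adjusted p = 0.021) and with ceftaroline (adjusted p = 0.031). PSMB9 had 80.2 to 99.1 CPM in the 2 MSC libraries with a title ending and 372 to 1526 CPM in the 5 without. The part of the ending in which groups passed was not tested.

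**Figure D2:**
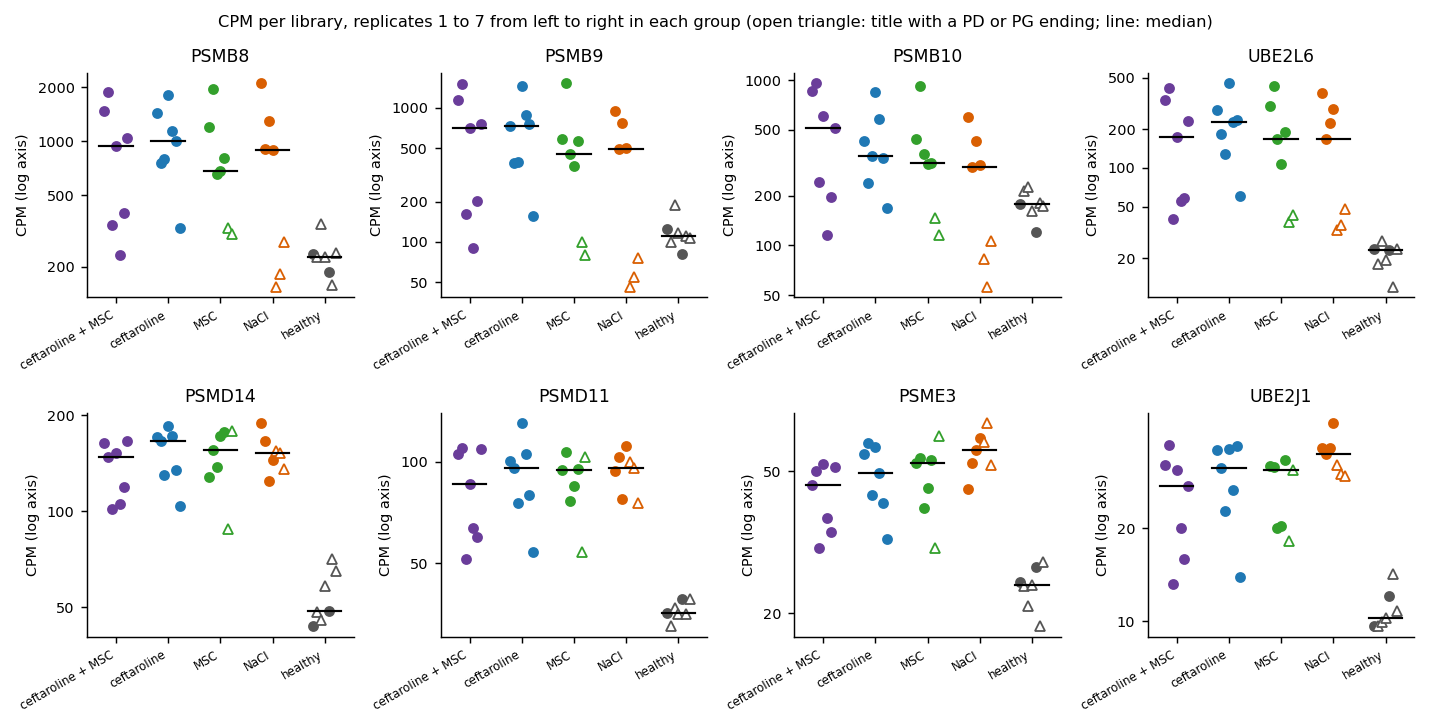
CPM of 8 genes in every library on a log axis, by group, with open triangles for titles that end in PD or PG and a line at the median. PSMD14, PSMD11 and PSME3 lie above every healthy library in all pneumonia groups, whereas PSMB8, PSMB9, PSMB10 and UBE2L6 spread widely within each pneumonia group.

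None of the 42 genes passed limma in the 3 deposited comparisons between treatments. In MSC against NaCl, 0 of 42 genes passed limma, as did 0% of all genes, with 2 at an unadjusted p under 0.05. edgeR called 0 of them and 0 of all genes. DESeq2, like the authors' deposited table, called 1, PSMG2, and DESeq2 called 3.64% of all genes. PSMG2 had 506, 576 and 690 normalised reads as lowest, median and highest with MSC, against 446, 461 and 530 with NaCl (log2 fold change 0.30, SE 0.10; limma, adjusted p = 0.19). All but 1 of the MSC libraries lay above the highest NaCl library. UBE2J1 had 172, 293 and 313 with MSC and 284, 331 and 419 with NaCl (log2 fold change -0.42, SE 0.17; limma, adjusted p = 0.23). UBE2H, an E2 with a role in red cell maturation, had 3461, 3795 and 6886 with MSC and 3488, 5806 and 7988 with NaCl (log2 fold change -0.39, SE 0.20; limma, adjusted p = 0.33). Both overlapped between the groups.

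In ceftaroline against NaCl, 0 of 42 genes passed limma, as did 0% of all genes, with 1 gene at an unadjusted p under 0.05. edgeR called 0 of them and 0 of all genes, and DESeq2 0 of them and 5.38% of all genes. UBE2D2 had 500, 578 and 718 normalised reads as lowest, median and highest with ceftaroline, against 605, 703 and 735 with NaCl (log2 fold change -0.23, SE 0.10; limma, adjusted p = 0.26). PSMC3 had 4279, 4945 and 5598 with ceftaroline and 4904, 5800 and 6981 with NaCl (log2 fold change -0.24, SE 0.12; limma, adjusted p = 0.29). PSMC3IP had 12.4, 18.0 and 36.0 with ceftaroline and 4.32, 14.9 and 17.4 with NaCl (log2 fold change 0.64, SE 0.32; limma, adjusted p = 0.32). All 3 overlapped. PSMB9 had a log2 fold change of 1.27 here with an SE of 0.74, while that of PSMD14 was -0.03 with an SE of 0.15. No ceftaroline title has an ending, and against the 4 NaCl libraries without one the fold change of PSMB9 was -0.22 (SE 0.50). Those of PSMB8, PSMB10 and UBE2L6 were -0.40, -0.07 and -0.39 in that comparison, added after the values were seen, where those against all 7 NaCl libraries were 0.72, 0.91 and 0.76. None of these passed.

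In ceftaroline plus MSC against ceftaroline, 0 of 42 genes passed limma, where 0.0403% of all genes did, with 3 at an unadjusted p under 0.05. edgeR called 0 of them and 11 of all genes, and DESeq2 0 of them and 0.998% of all genes. UBE2B, an E2 of DNA damage tolerance, had 2936, 3588 and 4333 normalised reads as lowest, median and highest with ceftaroline plus MSC, against 3732, 4470 and 6471 with ceftaroline (log2 fold change -0.35, SE 0.13; limma, adjusted p = 0.43). UBE2Z had 1610, 1933 and 2077 with ceftaroline plus MSC and 1098, 1539 and 1916 with ceftaroline (log2 fold change 0.28, SE 0.12; limma, adjusted p = 0.43). PSMC6 had 1701, 2365 and 2791 with ceftaroline plus MSC and 2316, 2828 and 3290 with ceftaroline (log2 fold change -0.25, SE 0.12; limma, adjusted p = 0.43). In each the groups overlapped. The effect of MSC with ceftaroline minus that without passed for 0 of 42 genes, where 0.00978% of all genes did. PSMD1 had the lowest p, with a difference of 0.35 (SE 0.16; limma, adjusted p = 0.86), followed by PSMG2 with -0.26 (SE 0.12; limma, adjusted p = 0.90).

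Ceftaroline plus MSC and NaCl do not stand in 1 deposited table, so they were compared in the fit over all libraries, where 2 of 42 genes were higher and 5 lower. Of all genes 17.2% were higher and 13.8% lower in that comparison. PSMF1, the inhibitor, had 62.1, 65.7 and 68.2 CPM with ceftaroline plus MSC and 39.5, 51.7 and 57.9 with NaCl (log2 fold change 0.39, SE 0.13; limma, adjusted p = 0.022). No NaCl library reached the lowest of the treated ones, and healthy lungs lay between 42.2 and 69.2 CPM. PSMC3IP had 0.897, 2.37 and 2.70 CPM with ceftaroline plus MSC and 0.365, 1.26 and 1.49 with NaCl (log2 fold change 0.88, SE 0.30, adjusted p = 0.026 by limma). This gene is limited by depth, with 3 reads in its lowest library of the series. Median depth was 12927861 reads with ceftaroline plus MSC and 9527492 with NaCl. UBE2H was lower, with 261, 351 and 587 CPM under ceftaroline plus MSC and 373, 608 and 836 CPM under NaCl (log2 fold change -0.69, SE 0.21; limma, adjusted p = 0.014). UBE2B had 194, 231 and 277 CPM with ceftaroline plus MSC and 262, 296 and 428 CPM with NaCl (log2 fold change -0.42, SE 0.13; limma, adjusted p = 0.016). PSME3 (-0.42), PSMD12 (-0.41) and UBE2D2 (-0.31) were lower as well. Without the libraries with an ending, an alternative added after the values were seen, 0 were higher and 4 lower. The share of all genes called in that alternative was not counted. UBE2H (-0.97), UBE2B (-0.54) and UBE2D2 (-0.35) were among the 4 lower, while PSMF1 had 0.24 (limma, adjusted p = 0.23) and PSMC3IP 0.73 (limma, adjusted p = 0.11). UBE2D2 lay within 43.7 to 53.4 CPM with ceftaroline plus MSC, against 51.9 to 62.3 CPM with NaCl. The summed neutrophil markers had medians of 10398 CPM with ceftaroline plus MSC and 74119 CPM with NaCl, and their part in these differences was not tested.

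The genes differed in how far rabbits of 1 group lay apart. In each of the 4 pneumonia groups PSMB9 and UBE2L6 had the largest SD of log2 CPM of the 42 genes, and PSMB8 and PSMB10 were among the 5 largest. The SD of PSMB9 was 1.57 with ceftaroline plus MSC, 1.05 with ceftaroline, 1.5 with MSC, 1.91 with NaCl and 0.37 in healthy lungs. The median SD of the 42 genes was 0.26, 0.27, 0.29, 0.28 and 0.25 in the same order, below that of all genes (0.38, 0.43, 0.46, 0.48 and 0.33). All genes were not matched to the 42 by level, on which this SD depends. PSMB9 had 89.8, 707 and 1508 CPM as lowest, median and highest with ceftaroline plus MSC, 157, 730 and 1461 with ceftaroline, 80.2, 452 and 1526 with MSC, 46.4, 496 and 946 with NaCl and 81.6, 110 and 187 in healthy lungs. With ceftaroline plus MSC, replicates 3, 5 and 6 held the 3 lowest values of PSMB8, PSMB9, PSMB10, PSME1 and UBE2L6, and also of PSMD14, PSMD11, PSME3 and UBE2J1. With ceftaroline, replicate 7 held the lowest value of all 9, and with MSC and NaCl the lowest libraries for the first 5 genes were those whose titles end in PG.

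**Figure D3:**
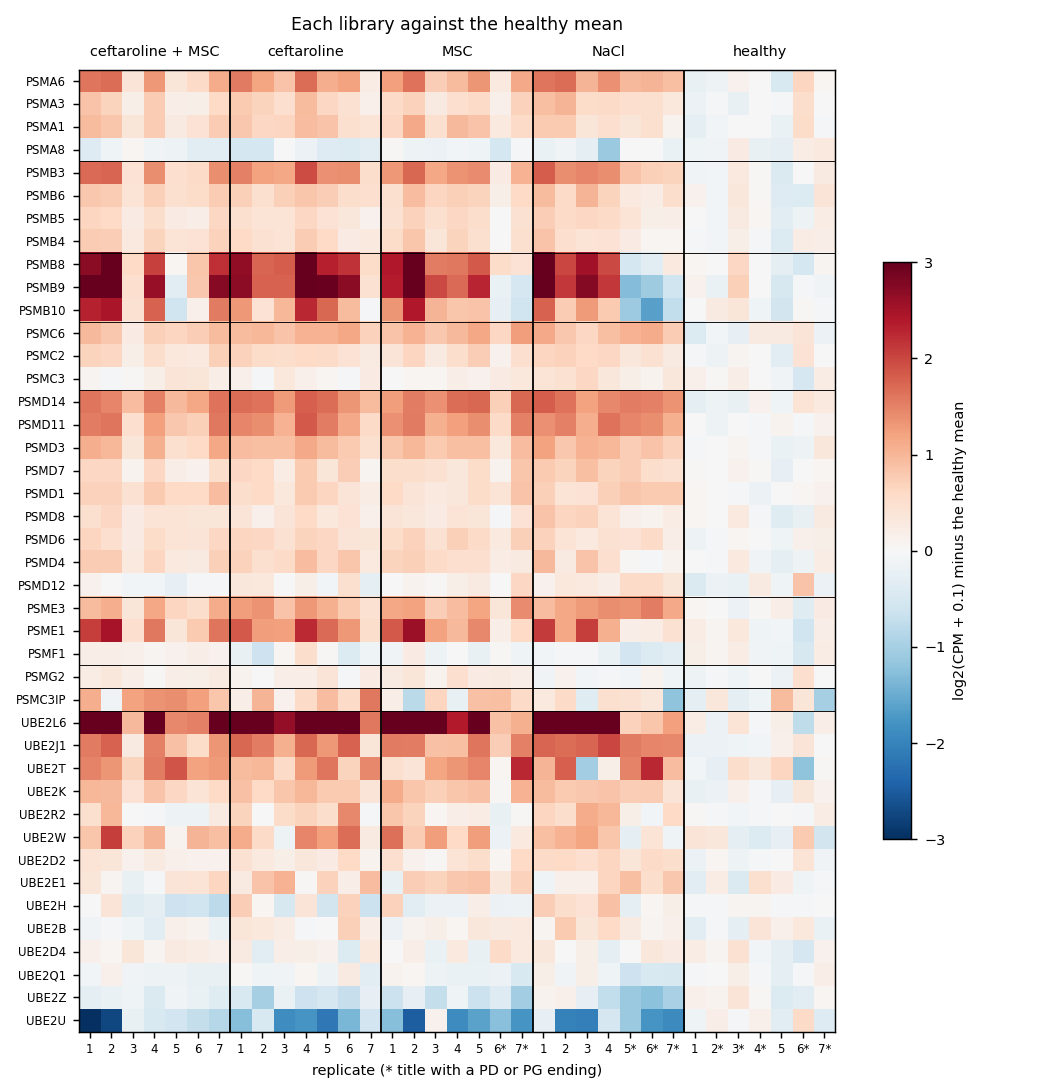
Log2(CPM + 0.1) of the 42 genes in each library minus the mean of the healthy libraries, with genes in rows by role and libraries in columns by group (asterisks mark titles that end in PD or PG; colours stop at 3 in either direction). The rows of PSMB8, PSMB9, PSMB10 and UBE2L6 change from library to library, while PSMD14 and PSMD11 are red across all pneumonia columns.

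The split by title ending was examined after these values were seen. Of NaCl replicates 1 to 4, without an ending, PSMB9 had 946, 496, 771 and 498 CPM, and of replicates 5 to 7, with it, 46.4, 54.3 and 75.5 CPM, below the lowest healthy library. With MSC the 2 libraries with an ending had 80.2 and 99.1 CPM and the other 5 had 372 to 1526 CPM. PSMB8 had 156 to 275 CPM in NaCl libraries with an ending and 897 to 2099 CPM in those without. UBE2L6 had 33.4 to 48.5 CPM in NaCl libraries with an ending, still above all healthy ones, and 166 to 377 CPM in those without an ending.

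In a limma fit over the NaCl and MSC groups with group and ending as terms, 14 of 42 genes were lower and 0 higher in libraries with an ending, where 14.3% and 14% of all genes were. PSMB9 differed by -3.17 (SE 0.31), UBE2L6 by -2.55 (SE 0.29), PSMB8 by -2.16 (SE 0.31), PSMB10 by -2.03 (SE 0.28) and PSME1 by -1.26 (SE 0.26). All 4 constitutive beta subunits were also lower, by between -0.76 and -0.35, as were 5 E2 enzymes, but only PSMD4 of the 12 tested 19S subunits was. In these groups the title letter changes together with the ending, so the letters cannot be told apart from the ending. Of the tested markers, 3 of 5 of neutrophils, 1 of 4 of macrophages, 1 of 3 of red cells and the 1 of T cells were lower with an ending, and 4 of 5 of endothelium, 2 of 3 of alveolar type II and 2 of 3 of type I cells were higher. Summed neutrophil markers had 14905 to 50882 CPM in NaCl libraries with an ending and 74119 to 139927 CPM in those without, and the part of these cells was not tested.

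Set against healthy libraries of the same kind of title, NaCl libraries without an ending (4 against 2) had 29 of 42 genes higher and 0 lower, where 20.2% and 18.1% of all genes were. NaCl libraries with an ending (3 against 5) had 16 higher and 5 lower, where 27.6% and 28.6% of all genes were. Higher in both sets were 14 genes, and the share of all genes higher in both was not counted. Among the 14 were PSMD14 (1.41 with and 1.79 without an ending), PSMD11 (1.36 and 1.40), PSME3 (1.43 and 1.11), UBE2J1 (1.52 and 1.85) and PSMC6 (0.98 in each). PSMB9 and PSMB10 were lower with an ending (-1.02 and -1.21) and higher without (2.74 and 1.46), and PSMB8 had -0.19 with and 2.58 without. UBE2Z had -1.12 with and 0.01 without. The difference between these effects, as an interaction, was lower with an ending for 7 of 42 genes and higher for 0, where 5.06% and 4.63% of all genes were. These were PSMB9 (-3.76, SE 0.42; limma, adjusted p = 0.0004), PSMB8 (-2.77, SE 0.46), PSMB10 (-2.67, SE 0.39), UBE2L6 (-2.42, SE 0.43), PSMB3 (-1.16), UBE2Z (-1.13) and UBE2Q1 (-0.77). With an ending the healthy libraries are mostly PD and the NaCl libraries all PG, so that the comparison also joins these 2 endings.

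**Figure D4:**
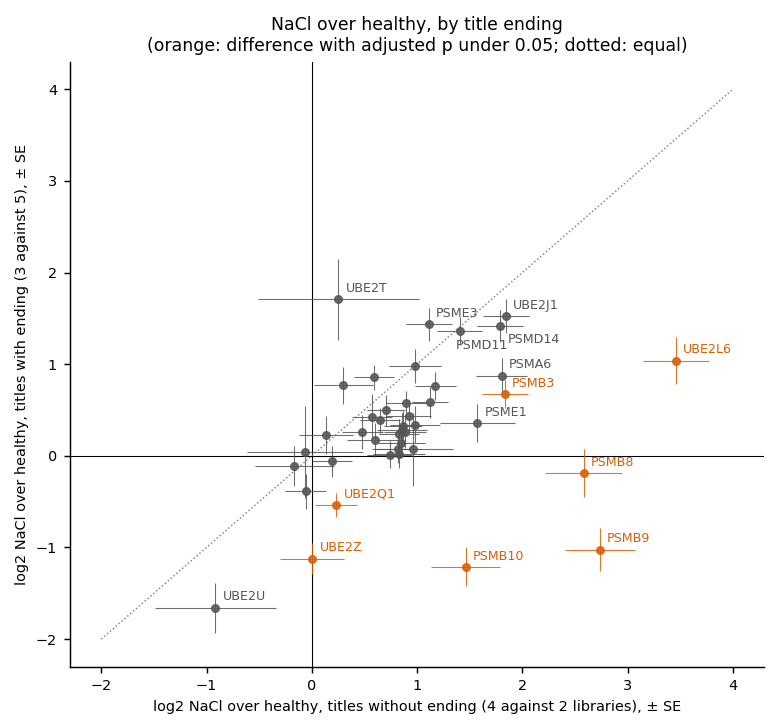
Log2 fold change of NaCl over healthy lungs in libraries whose titles have an ending (vertical axis, 3 against 5) and in those without (horizontal axis, 4 against 2), with SE bars and a dotted line of equal values. PSMB8, PSMB9, PSMB10 and UBE2L6 lie far below the line, and PSMD11, PSMD14, PSME3 and UBE2J1 lie near it.

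In the wider pathway, of the tested genes 3 of 7 regulators, 3 of 4 peptide loading partners, 1 of 7 E1 enzymes and the ubiquitin gene UBB were lower in NaCl and MSC libraries with an ending, and 1 E1 enzyme (UBA2) and 2 of 7 partners and shuttles (UBQLN4 and UBQLN2) were higher, where 14.3% of all genes were lower and 14% higher. NLRC5, the transactivator of MHC class I genes and their immunoproteasome partners, differed by -2.79 (SE 0.31), TAP1 by -2.17 (SE 0.29), IRF1 by -2.18 (SE 0.40) and B2M by -1.01 (SE 0.25). UBA7, the E1 enzyme that activates ISG15 for UBE2L6, differed by -2.80 (SE 0.43), with 9.53 to 18.2 CPM in NaCl libraries with an ending and 64.2 to 249 CPM in those without. All of these passed limma. STAT3 (0.16, SE 0.24), NFE2L2 (0.04, SE 0.23) and VCP (0.11, SE 0.13) did not.

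The CPM ratio of an induced to a constitutive subunit within each library is given as a description of transcripts. Exchange of subunits in assembled proteasomes was not measured, and the part of cell numbers in the ratio was not tested. The log2 ratio of PSMB8 to PSMB5 had lowest, median and highest values of -0.57, 1.16 and 2.08 with ceftaroline plus MSC, 0.06, 1.44 and 2.02 with ceftaroline, -0.39, 0.69 and 2.05 with MSC, -1.32, 1.04 and 2.1 with NaCl and -0.72, -0.32 and -0.03 in healthy lungs. It lay above every healthy library in 6, 7, 6 and 4 libraries of the pneumonia groups in that order, and below every healthy library in 2 NaCl libraries. The log2 ratio of PSMB9 to PSMB6 had -2.29, 0.44 and 1.48 with ceftaroline plus MSC, -1.52, 0.48 and 1.37 with ceftaroline, -2.59, -0.13 and 1.33 with MSC, -3.07, -0.01 and 0.64 with NaCl and -1.96, -1.48 and -1.11 in healthy lungs. Here 4, 6, 5 and 4 libraries lay above the healthy range in the same order. Below it lay 1 library with ceftaroline plus MSC, which has no title ending, 1 with MSC and 3 with NaCl, the last 4 with an ending. The ratio of PSMB10 to PSMB7 could not be formed, since PSMB7 was listed at 0.

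**Figure D5:**
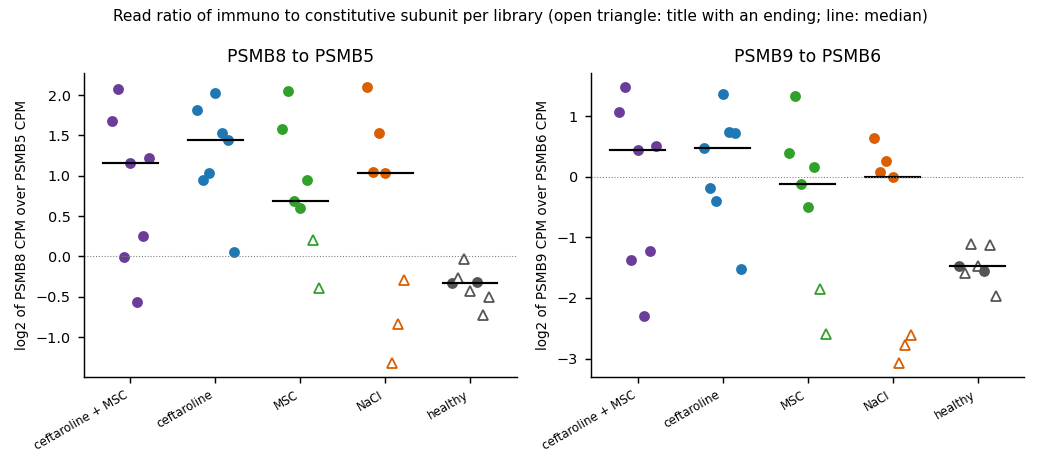
Log2 ratio of the CPM of an induced to a constitutive catalytic subunit in each library, by group (open triangles mark titles that end in PD or PG; lines are medians; the dotted line marks equal CPM, which is not equal abundance because length was not corrected). Medians lie at 1.16, 1.44, 0.69, 1.04 and -0.32 for PSMB8 to PSMB5 from left to right.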

How the data were processed

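Lung mRNA of 35 rabbits was sequenced with stranded single reads of 75 bp, trimmed with Cutadapt 1.15 and reads of over 10 bp kept, per the labels' protocols. TopHat2 2.1.1, featureCounts 1.5.2 and DESeq2 1.24.0 are named in the submitters' processing notes without roles. Genome build and annotation: not given in the sources used here. Deposited by the authors were 4 tables, each with a signal per gene for 14 libraries. Its values proved to be reads divided by size factors of that table. Per the file headers the authors' own columns hold a log2 fold change, its standard error and test statistic (scores), and a p-value with its adjusted form.

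All 646257 nonzero values were whole multiples of the step of their column (100% at a relative tolerance of 1e-06), which gave reads per gene, and 21 library columns that repeat in another table gave identical reads. Within a table, log2(value + 1) was tested with limma 3.58.1 (trend, two-sided, R 4.3.3) for genes with at least 10 in at least 7 of 14 libraries, and p-values were adjusted by Benjamini-Hochberg over all genes. Fits across tables used TMM-scaled log2 CPM (edgeR 4.0.16, prior count 2) of genes with at least 10 reads in at least 7 libraries, and levels in CPM carry the same scaling. Alternatives were edgeR's quasi-likelihood test and DESeq2 1.42.0 on the recovered reads, other thresholds, pseudocounts, filters and scaling, single libraries left out, title endings and a replicate block. The fits were tested on simulated data.

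The genes, lists and tests were chosen with earlier results of these data known. Genes given in detail are up to 8 called genes in each direction by size of change (mean of at least 50), the catalytic subunits, the activators and UBE2L6, UBE2N, UBE2C and UBE2D1 whatever their result, the 3 with the lowest p in each other comparison, and the 2 with the lowest p for the difference of MSC effects. Others are given by counts and fold changes. Against healthy lungs in the fit across tables, PSMB8, PSMB9, PSMB10 and UBE2L6 were added, and UBE2J1 was given beside them. Marker and pathway lists came from textbook knowledge. Outside the genes described, 11 symbols had been turned into dates in 3 tables, and symbols were taken from the remaining table. All 43 symbols stand in the RefSeq gene table of mOryCun1.1, from which no coordinates were used. P-values weigh a difference between group means against the spread between rabbits of a group. Some genes of the pathway lists are counted but not reported here by name.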

Additional observations from a re-analysis of the deposited data

Results flagged for a closer look

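Within groups of 7, a library far from its nearest neighbour was looked for in 110 gene and group pairs of 22 genes, and 4 were found, where chance gives about 1 in 20. PSMB5 had 287 CPM in MSC replicate 6, and the next lowest MSC library had 400 CPM. PSMC3IP had 0.897 CPM in ceftaroline plus MSC replicate 2, and the next lowest had 1.82 CPM. PSMG2 and UBE2D2 had 71.9 and 53.5 CPM in healthy replicate 6, the highest of its group for both, and the next highest healthy libraries had 51.7 and 41.7 CPM. This is the only healthy library with a PG title. Outside the genes searched, it was also the highest healthy library for PSMA3 (398 CPM, next 275), PSMA1 (273, next 188) and PSMD12 (477, next 315). For PSMB8, PSME1, PSME3 and UBE2L6 it was the lowest.

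The NaCl effect, NaCl over healthy on the log2 scale, differed between libraries with and without a title ending for 7 genes, by the interaction in limma. The effect with an ending minus that without was -3.76 for PSMB9 (adjusted p = 0.0004), -2.67 for PSMB10 (adjusted p = 0.0025), -2.77 for PSMB8 (adjusted p = 0.0038), -2.42 for UBE2L6 (adjusted p = 0.0046), -1.16 for PSMB3 (adjusted p = 0.01), -0.77 for UBE2Q1 (adjusted p = 0.034) and -1.13 for UBE2Z (adjusted p = 0.049). In each the 3 NaCl libraries with an ending were set against 5 healthy ones, and 4 NaCl libraries against 2 healthy ones without. With an ending the NaCl titles are all PG and the healthy ones mostly PD. The interaction was added after the values were seen, so its p-values come from the same values that prompted it.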

How the results depend on the processing

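In NaCl against healthy lungs the 29 higher and 2 lower genes became 24 to 29 higher and 1 to 2 lower without single libraries, and 24 of the 31 calls stayed without any 1 library. PSMB4 lost its call without healthy replicate 5 or NaCl replicate 1, and PSMD4, UBE2B, UBE2E1 and UBE2H without any 1 of 8 to 10 libraries of both groups. Higher genes numbered 16 in libraries with a title ending only (3 against 5). Lower genes numbered 1 at a threshold of 0.01, with no filter on low values, with edgeR, with DESeq2 and in the authors' deposited table, 0 in libraries without an ending and 5 in those with one. With an ending PSMB8 turned to -0.19, PSMB9 to -1.02 and PSMB10 to -1.21. UBE2Z turned to 0.005 (adjusted p = 0.991) without one. PSMB10 ran from -0.06 to 0.502 without single libraries and turned to -0.10 with the ending as a covariate. The cause was not tested. In MSC against NaCl, DESeq2 and the authors' deposited table called 1 higher gene in place of 0. In the fits across tables, a threshold of 0.01 left 1 lower gene for MSC and 1 for ceftaroline against healthy, 0 for ceftaroline plus MSC against healthy (0 with edgeR too), and 0 higher and 0 lower for ceftaroline plus MSC against NaCl. Without the libraries with an ending, 0 were higher there and 4 lower, and the share of all genes was not counted. In no other run did a count of members move by over 1.5 times. Title numbers shared between groups gave no clear pairing: correlations of deviations from the group means ran from -0.38 to 0.48. The closest library bore the same number in 2 of 3 pairs for MSC against NaCl and 2 of 4 for ceftaroline against NaCl. For ceftaroline plus MSC against ceftaroline it did in 0 of 7. So few pairs cannot decide whether numbers pair the libraries. With title numbers as a replicate block 0 members were called in the 3 treatment comparisons, as without the block. NaCl and healthy share too few numbers for a block. Genes such as PSMC3IP, UBE2T and UBE2W, with medians of 0.88 to 4.19 CPM, are limited by depth.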
